A study of Mus musculus with 36 samples.

Results

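The genes described here are type I interferon-stimulated antiviral genes, given as a list of 36 gene names. No difference between groups entered the rule, but the list was drawn up with earlier results of these data known. Of the 36, 32 had a probe set assigned to a single symbol and were measured, out of 17097 genes tested in the series. The remaining 4, Isg15, Oas1a, Bst2 and Ifi44, were not analysed here. Where a gene had several probe sets, the one that was brightest on average was used. The series profiled total RNA of whole resected colon on GeneChip microarrays in mice lacking the IL-17 receptor subunit Il17rc (KO) and in wild-type mice (WT), with an age given as 6 to 8 weeks. Untreated KO and WT mice were labelled day 0 and had 4 arrays per genotype. The protocol of the treated mice was azoxymethane (AOM), a colon carcinogen, and then up to 3 cycles of 3% dextran sulfate sodium (DSS), which injures the colon lining, each of 5 days in the drinking water and 14 days of regular water. By that schedule day 7 and day 15 fall before its end, and the labels do not say how much of it those mice had received. KO and WT colons were taken at day 7 (4 arrays per genotype), at day 15 (4 per genotype) and with tumors at day 63 (6 per genotype), which gave 36 arrays in 8 groups. The age of 6 to 8 weeks is given for every array, day 63 included, so it cannot be the age at collection throughout. Comparisons of tumor with untreated arrays may thus also differ in age. Titles of the day 63 arrays read colon tumor, whereas the RNA is described as that of whole resected colon. Tumor tissue and tumor-bearing colon are therefore not told apart here, and these arrays are called tumors below. The sources used here do not give the allele or construction of the KO line, the strain, or whether KO and WT mice were littermates.

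Type I interferons are cytokines that most cells release after sensing viral or other misplaced nucleic acid. They bind a shared receptor, whose kinases switch on a transcription factor complex that includes STAT2 and IRF9 and binds the interferon-stimulated response element (ISRE) in target promoters. Interferon gamma acts through a separate receptor and through the gamma-activated site (GAS), and many target genes respond to both kinds of interferon. In the intestine these genes are known for restricting viruses in epithelial and immune cells, and microbes of the gut lumen can set their basal level.

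The promoter sequences of 4 of the genes show both motifs and the range of responses described below. They were taken from RefSeq windows of 300 bases on the GRCm38.p6 build, from 250 bases before to 50 bases after the annotated start of transcription, and are written 5′ to 3′ on the strand of the gene. Capitals mark matches, on either strand, to the ISRE core GAAANNGAAA or to the GAS core TTCNNNGAA. The window of Ifit1 lies at chr19:34640639-34640938 on the plus strand and that of Ddx60 at chr8:61927837-61928136 on the plus strand. Both genes were among those with the highest KO excess, and each window holds 2 ISRE cores. The window of Irf1, at chr11:53769764-53770063 on the plus strand, holds a GAS core and no ISRE core. The window of Eif2ak2, at chr17:78882523-78882822 on the minus strand, holds 1 core of each kind, in a gene that differed little between genotypes.
Ifit1: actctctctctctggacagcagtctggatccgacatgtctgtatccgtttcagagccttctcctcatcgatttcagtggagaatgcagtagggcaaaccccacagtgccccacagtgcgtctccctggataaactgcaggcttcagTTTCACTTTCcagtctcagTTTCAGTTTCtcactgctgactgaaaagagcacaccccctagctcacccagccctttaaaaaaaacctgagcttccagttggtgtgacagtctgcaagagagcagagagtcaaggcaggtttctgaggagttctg
Ddx60: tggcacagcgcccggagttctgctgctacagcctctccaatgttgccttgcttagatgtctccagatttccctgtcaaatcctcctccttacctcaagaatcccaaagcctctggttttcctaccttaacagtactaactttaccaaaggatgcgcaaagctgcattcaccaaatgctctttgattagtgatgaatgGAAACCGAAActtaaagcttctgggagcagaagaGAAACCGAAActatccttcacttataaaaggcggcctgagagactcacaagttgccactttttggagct
Irf1: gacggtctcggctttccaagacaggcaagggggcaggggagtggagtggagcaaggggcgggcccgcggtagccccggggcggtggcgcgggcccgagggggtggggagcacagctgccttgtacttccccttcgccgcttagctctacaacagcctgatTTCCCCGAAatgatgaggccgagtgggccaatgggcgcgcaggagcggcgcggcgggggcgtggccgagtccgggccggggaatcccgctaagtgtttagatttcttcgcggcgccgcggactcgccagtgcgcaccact
Eif2ak2: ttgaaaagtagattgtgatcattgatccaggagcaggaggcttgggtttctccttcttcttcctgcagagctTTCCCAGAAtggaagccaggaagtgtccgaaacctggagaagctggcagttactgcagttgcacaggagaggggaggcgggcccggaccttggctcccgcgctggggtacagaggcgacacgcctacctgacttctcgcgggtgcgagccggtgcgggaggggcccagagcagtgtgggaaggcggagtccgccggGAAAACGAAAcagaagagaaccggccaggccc

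Promoter windows were found for 22 of the 32 genes. An ISRE core was present in 11 of these 22 genes (50%) and in 3.99% of the 27025 genes with a window. Besides Ifit1, Ddx60 and Eif2ak2, the holders were Ifit3, Oas1g, Oas3, Rsad2, Stat2, Trim30a, Ddx58 and Ifih1. A GAS core was found in 4 of 22 (18.2%), namely Irf1, Ifit2, Ifi35 and Eif2ak2, against 9.55% of all genes. Both motifs were searched on both strands, and the pair of ISRE cores of Oas1g overlap. A match describes letters in the window and is no evidence of binding.

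**Figure D1:**
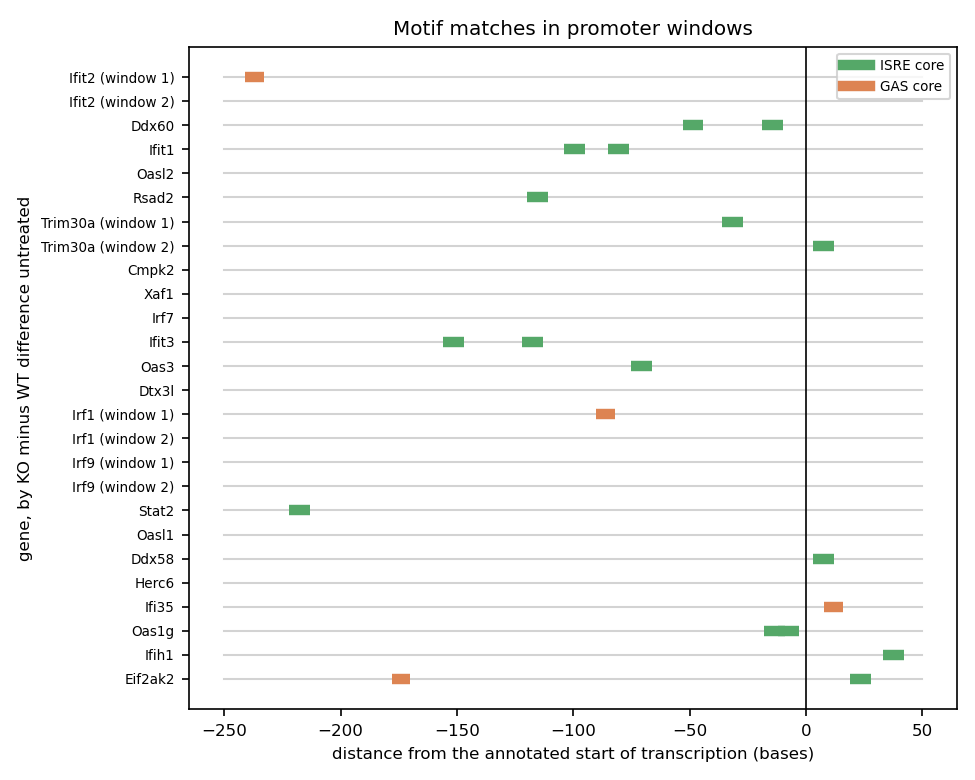
Matches to the ISRE core (green) and the GAS core (orange) in the promoter windows, with the distance from the annotated start of transcription in bases on the x axis and the genes on the y axis, ordered from the highest KO minus WT difference in untreated colons at the top. Genes with 2 annotated starts have 2 windows. ISRE cores of 11 genes lie from 222 bases before to 42 bases after the start, and Eif2ak2, at the bottom, holds both motifs.

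Il17rc itself served as the check of the genotype labels. Its intensity, a linear brightness without unit, was 7, 15, 10 and 9 in untreated KO arrays, against 271, 330, 318 and 248 in untreated WT arrays. It lay between 8 and 13 in KO arrays of day 15 and tumors, against 76 to 341 in the WT arrays of those stages. The arrays labelled KO day 7 had 331, 44, 12 and 10, against 340, 515, 373 and 425 in WT day 7 arrays. The value of the array labelled KO day 7 replicate 1 therefore lies in the WT range and goes against its label. That of KO day 7 replicate 2, 44, is above every KO array other than replicate 1 and below every WT array. For these reasons KO day 7 results are also given without replicates 1 and 2. The median intensity was 14 to 16 on every array. Krt5, a keratin of squamous epithelium that the colon lining lacks, exceeded 100 in 7 arrays. These comprised the same KO day 7 pair, 1 KO tumor, 2 untreated WT arrays and 2 WT arrays of day 7. A single KO tumor (replicate 4) carried the Y-linked transcript Eif2s3y at 139, against 7 to 11 elsewhere. The summed intensity of 10 colon epithelium markers was 24588 to 40744 over KO arrays and 24885 to 41267 over WT arrays.

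Untreated KO colons were set against untreated WT colons to see how the genes stood before any treatment. In KO colons 28 of the 32 genes were higher and 0 were lower (limma, adjusted p under 0.05 over all 17097 genes), where 1.79% of all genes were called higher. The median log2 difference of the 32 genes was 1.83, against 0.00 over all genes, and 29 exceeded 1. The mean of the 32 genes on the log2 scale was 8.08 ± 0.47 in untreated KO arrays and 6.08 ± 0.43 in untreated WT arrays (SD, n = 4 each). All 4 KO arrays, from 7.55 to 8.57, were above all WT arrays, from 5.84 to 6.73. For 28 genes every KO array was above every WT array, which held for 5.95% of all genes. In a bulk sample more cells of a type and more RNA per cell cannot be told apart.

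**Figure D2:**
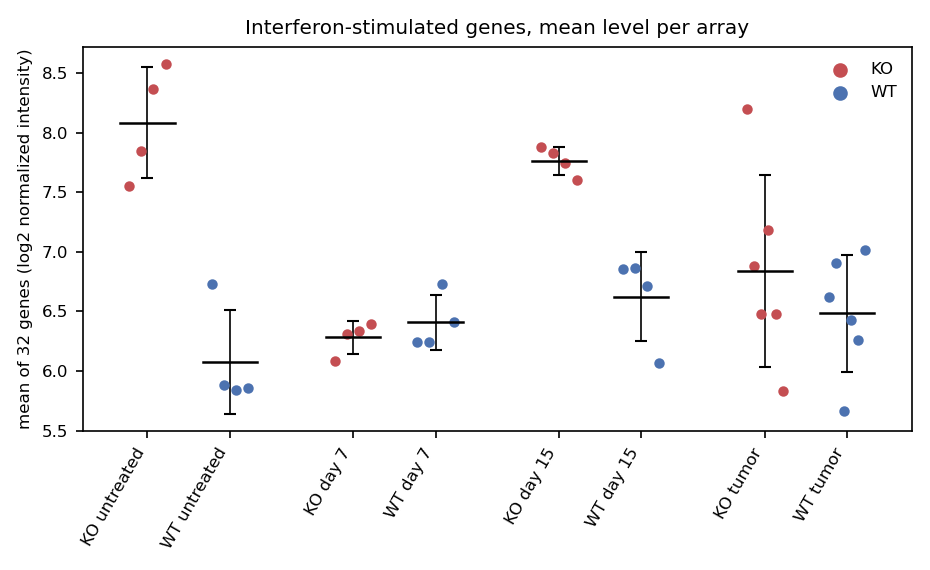
Mean level of the 32 genes per array on the log2 scale of the normalized intensity (y axis) in the 8 groups (x axis, by stage, KO left of WT). Points are arrays, horizontal bars group means and whiskers 1 SD. Untreated and day 15 KO arrays lie above the WT arrays of their stage, whereas day 7 arrays of both genotypes lie between 6.08 and 6.73.

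The tetratricopeptide proteins of the IFIT family bind foreign RNA and hinder its translation. Ifit2 had intensities of 421, 611, 1309 and 1210 in untreated KO arrays, against 67, 52, 28 and 43 in untreated WT arrays, with no overlap. Its log2 difference was 4.10 ± 0.58 (SE, adjusted p = 1.62e-05), the highest of the 32 genes. The neighbouring family members Ifit1 (3.35) and Ifit3 (2.23), which lie with Ifit2 on chromosome 19, were higher as well. So were Usp18 (2.79), which removes the ubiquitin-like modifier ISG15 from proteins and dampens receptor signalling, and Herc6 (1.22), which attaches that modifier in mice. All 5 measured genes of this group were therefore higher in KO colons.

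Oligoadenylate synthetases sense double-stranded RNA and make a messenger that activates the ribonuclease RNase L. Oas3 had intensities of 44, 56, 71 and 68 in untreated KO arrays, against 16, 15, 14 and 14 in untreated WT arrays. The WT values lie at the median of the arrays, where a log2 difference understates a change, and the difference was 1.94 ± 0.20 (SE, adjusted p = 1.11e-07). This was the smallest p of the 32 genes. Oasl2 (3.22), Oas2 (2.16) and Oasl1 (1.45) were also higher, whereas Oas1g (1.12, adjusted p = 0.169) did not pass although its arrays did not overlap. These 5 genes all lie on chromosome 5, and probe sets of such similar genes may bind more than 1 transcript.

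Among further effectors, Xaf1, which counters inhibitors of apoptosis, had intensities of 384, 490, 588 and 708 in untreated KO arrays, against 153, 92, 67 and 92 in untreated WT arrays. Its log2 difference was 2.44 ± 0.36 (SE, adjusted p = 3.76e-05), and 1.21 with the mean of all its probe sets. The other Xaf1 probe set lay below the array median, with means of 9.5 in untreated KO and 9.75 in untreated WT arrays. Rsad2 (3.04), which encodes viperin, a maker of a chain-terminating nucleotide, and its neighbour on chromosome 12, Cmpk2 (2.46), a nucleotide kinase, were both higher. Rtp4 (2.62), which restricts RNA viruses, Mx1 (1.35), a GTPase that blocks influenza viruses, and Ifi35 (1.19) were higher too. Ifi27l2a differed by 1.85 with adjusted p = 0.0875 and overlapping arrays.

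The smallest differences belonged to Mx2 and Eif2ak2 of the same group. Mx2, the second Mx GTPase, had 15, 15, 16 and 19 in untreated KO arrays, against 18, 14, 15 and 13 in untreated WT arrays, which is near the array median throughout. Eif2ak2, the kinase PKR that halts translation on double-stranded RNA, had 54, 58, 91 and 126 in untreated KO arrays, against 94, 49, 68 and 65 in untreated WT arrays. The log2 differences were 0.12 (95% interval -0.12 to 0.36) for Mx2 and 0.24 (-0.28 to 0.75) for Eif2ak2. The groups overlapped for both genes.

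All 5 nucleic acid sensors were higher in untreated KO colons. Ddx58, which encodes the RNA helicase RIG-I, had intensities of 155, 170, 225 and 194 in KO arrays, against 93, 70, 49 and 75 in WT arrays (log2 difference 1.40 ± 0.20 SE, adjusted p = 2.02e-05). With the mean of all its probe sets the difference was 0.75, where the others had mean intensities of 14.2 and 21.2, against 130. The related helicases differed by 0.94 for Ifih1 (MDA5), 1.79 for Dhx58 (LGP2) and 3.57 for Ddx60, a helicase reported to aid RIG-I. Zbp1, a sensor of Z-form nucleic acid that can start necroptosis, differed by 3.10.

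The 4 transcription factors were higher in untreated KO colons as well. Irf1 had intensities of 1030, 1209, 1477 and 1469 in KO arrays, against 472, 369, 395 and 373 in WT arrays (1.66 ± 0.27 SE, adjusted p = 0.000126). Irf7 (2.32), the factor that amplifies production of interferon alpha, had the highest difference of the 4. Irf9 (1.62) and Stat2 (1.52), which act in the ISRE-binding complex, were higher. A second Stat2 probe set of similar brightness (mean 18.2 against 18.7, both near the array median) differed by 0.74.

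The 4 genes of ADP-ribosylation and TRIM proteins were all higher. Dtx3l, a ubiquitin ligase that acts with PARP9, had intensities of 801, 863, 893 and 943 in untreated KO arrays, against 316, 235, 190 and 270 in untreated WT arrays. Its log2 difference was 1.80 ± 0.22 (SE, adjusted p = 1.81e-06). The neighbours of Dtx3l on chromosome 16, the ADP-ribosyltransferase family genes Parp9 (1.58) and Parp14 (1.57), differed by similar amounts. Trim30a, a TRIM protein that restrains inflammatory signalling, differed by 2.48.

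**Figure D3:**
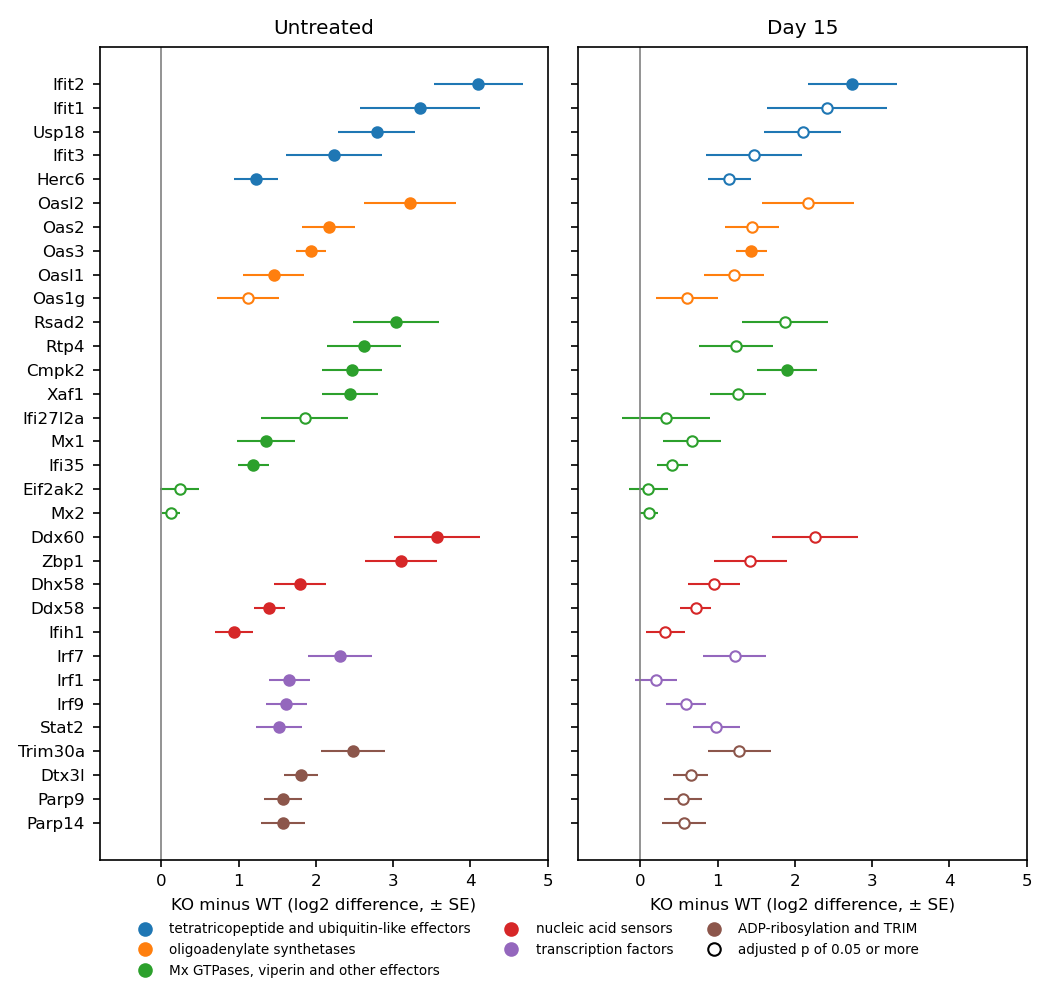
KO minus WT log2 difference with its standard error (x axis) for each of the 32 genes (y axis), in untreated colons (left) and at day 15 (right). Colours give the role of the gene, filled points have an adjusted p under 0.05 and open points do not. All differences are above 0 at both stages, with 28 filled points untreated and 3 at day 15.

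Other genes of the pathway were read beside these. Of 9 measured interferon genes, Ifng was higher in untreated KO colons (0.46 ± 0.10 SE, adjusted p = 0.00463), and the others, Ifnb1 and interferon alpha genes, were not called. All 9 lay between 6 and 18 on every array, near or below the array median. None of the 9 receptor and kinase genes was called, with Jak2 at 0.32 and Tyk2 at 0.37 (adjusted p = 0.202 and 0.375). Of 7 feedback inhibitors, Il18bp (4.41), which binds interleukin-18, and Socs3 (2.27), which blocks cytokine receptors, were higher. Of 11 adaptors and kinases of interferon induction, Tlr3 (1.13), a receptor for double-stranded RNA, was higher.

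The excess extended to other interferon targets. Of 38 further interferon-stimulated genes, 18 were higher and 0 lower in untreated KO colons, with a median log2 difference of 0.86. Nlrc5 (3.77), an activator of MHC class I genes, and Lgals3bp (1.79) were among them. Of 27 genes known for their response to interferon gamma, 25 were higher, with a median of 3.03, against 1.83 for the antiviral genes. Gbp8 (2.99) and Irgm2 (3.09), both interferon-inducible GTPases, were among these. The lists were chosen with earlier results in view, so the medians are descriptions.

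Some markers of T and cytotoxic lymphocytes, called lymphocyte markers below, were also higher in untreated KO colons. The summed intensity of 11 T and cytotoxic lymphocyte markers was 487 to 609 in untreated KO arrays, against 149 to 167 in untreated WT arrays, and 7 of the 11 were higher. Gzma, a granzyme of cytotoxic cells, had 164, 152, 48 and 83 in KO arrays, against 8, 8, 8 and 9 in WT arrays. In untreated KO arrays, from replicate 1 to 4, the mean of the 32 genes was 7.55, 7.84, 8.37 and 8.57. The lymphocyte sums in the same order were 584, 609, 508 and 487. Sums of 4 B cell markers were 78, 161, 679 and 51 in KO arrays and 44 to 66 in WT arrays. Of these markers 0 of 4 were called, with a median log2 difference of 1.03. Sums of 10 monocyte and macrophage markers were 3725, 3896, 3926 and 2471 in KO arrays and 1158 to 2280 in WT arrays. Here 0 of 10 were called, but all log2 differences were above 0 (0.62 to 1.52, median 1.05). Of 6 markers of plasmacytoid dendritic cells, known as strong producers of type I interferon, 0 were called. Their sums were 4195 to 4787 in untreated KO arrays and 6623 to 8173 in untreated WT arrays. Most of each sum came from Klk1, with 3954 to 4526 in KO arrays and 5369 to 6874 in WT arrays. The sums therefore mainly follow that gene, and the median log2 difference of the 6 markers was -0.004. Squamous markers summed to 197 to 263 in untreated KO arrays and to 204 to 43998 in untreated WT arrays. Without the 7 arrays with Krt5 above 100, 24 of the 32 genes were called higher in KO colons. The part of these cells in the result was not tested.

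At day 7 the difference between the genotypes was not seen. Among the 32 genes 0 were called between KO and WT arrays, where 0.298% of all genes were called in either direction, and 1 gene had an unadjusted p under 0.05, against 11.5% of all genes. That gene was Eif2ak2, at -0.56 with adjusted p = 0.383, the lowest of the list. The median log2 difference was -0.08. Ifit2 had 42, 48, 47 and 46 in KO day 7 arrays, against 30, 33, 84 and 52 in WT day 7 arrays, so the groups overlapped and the 95% interval of the log2 difference was -1.22 to 1.14. Oas3 had 12, 15, 13 and 17 in KO day 7 arrays, against 14, 16, 14 and 14 in WT day 7 arrays (interval -0.45 to 0.36). Without KO day 7 replicates 1 and 2 the count remained 0.

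Within KO mice, day 7 colons had lower levels than untreated colons for 28 of the 32 genes, where 6.58% of all genes were lower, with a median of -1.78. The genes with the largest falls were Ifit2 (-3.98), Ddx60 (-3.20), Rsad2 (-2.90), Zbp1 (-2.79), Usp18 (-2.73) and Cmpk2 (-2.43). The smallest called falls were those of Ifih1 (-0.81), Irf9 (-1.10) and Parp14 (-1.16). Irf1 shows the pattern at a higher intensity, with 339, 456, 516 and 450 in KO day 7 arrays, against 1030, 1209, 1477 and 1469 in untreated KO arrays. Lymphocyte markers fell alongside, with 8 of 11 lower and sums of 146 to 166 in KO day 7 arrays, against 487 to 609 in untreated KO arrays, and 8 of 10 monocyte and macrophage markers were lower. Without KO day 7 replicates 1 and 2 the count was 19, and with the letter in the sample titles as a block it was 16.

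In WT mice 0 of the 32 genes were called at day 7 against untreated, where 1.66% of all genes were called, and 1 had an unadjusted p under 0.05, against 12.7% of all genes. The median log2 difference was 0.34. The test of the difference itself, the genotype by stage interaction of day 7 against untreated, called 20 of the 32 genes lower, where 1.73% of all genes were called lower. They were led by Ifit2 (-4.14), Ddx60 (-3.52), Zbp1 (-3.46), Usp18 (-3.19), Rsad2 (-3.16) and Rtp4 (-2.85), and the smallest called were Ddx58 (-1.48), Ifi35 (-1.49) and Parp9 (-1.50). The change from untreated to day 7 was thus more negative in KO than in WT for these genes. The count was 11 when arrays of high Krt5 were left out, and also 11 without KO day 7 replicates 1 and 2.

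At day 15 the KO colons again had the higher levels. All 32 differences were above 0, with a median of 1.18, and 17 exceeded 1, but only 3 genes passed the test over all genes, where 0.17% of all genes were called higher. These were Ifit2 (2.75 ± 0.58 SE, adjusted p = 0.0361), Cmpk2 (1.90 ± 0.39, 0.0295) and Oas3 (1.44 ± 0.20, 0.000288). An unadjusted p under 0.05 was reached by 24 of the 32 genes, against 10.1% of all genes. For 22 genes every KO array was above every WT array, which held for 2.46% of all genes.

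The single arrays of day 15 show where the groups separated. Ifit2 had 957, 627, 437 and 919 in KO day 15 arrays, against 201, 138, 74 and 53 in WT day 15 arrays. Oas3 had 50, 47, 39 and 51 in KO day 15 arrays, against 16, 14, 14 and 18 in WT day 15 arrays. Cmpk2 had 98, 123, 74 and 91 in KO day 15 arrays, against 22, 21, 26 and 24 in WT day 15 arrays. In these 3 genes the lowest KO array was above the highest WT array. Xaf1 also separated, with 453, 440, 404 and 337 in KO day 15 arrays, against 164, 178, 215 and 119 in WT day 15 arrays, but did not pass (1.26, adjusted p = 0.146). Irf1 did not separate, with 802, 892, 951 and 515 in KO day 15 arrays, against 1042, 700, 792 and 316 in WT day 15 arrays (0.20, adjusted p = 0.878). For each of the 32 genes the day 15 difference was below the untreated one.

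Arrays with the same replicate number deviated together at day 15, with correlations of 0.174 to 0.801 over the 4 pairs. With the replicate number as a block in a fit of these 2 groups, 12 of the 32 genes were called. The call count was 1 without KO day 15 replicate 1, without KO day 15 replicate 2, without WT day 15 replicate 1 or without WT day 15 replicate 3. It was 6 without normalization and 7 with centring on the array median. S100a8, a neutrophil transcript, peaked in replicate 4 of each genotype, at 6239 in KO and 5585 in WT. Lymphocyte markers summed to 355 to 714 in KO day 15 arrays and to 233 to 526 in WT day 15 arrays, with 1 of 11 higher (Gzma, 1.78). Of the genes known for interferon gamma responses, 1 of 27 was higher (Cd274, 1.76), with a median of 1.04.

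Compared with day 7, KO colons of day 15 had higher levels of 25 of the 32 genes, where 12.5% of all genes were higher, with a median of 1.46. Ifit2 (3.78), Usp18 (2.96), Rsad2 (2.66), Ifit1 (2.46), Ifi27l2a (2.33) and Ddx60 (2.22) rose the most, and Ifi35 (0.69), Irf1 (0.74) and Parp9 (0.76) the least among those called. The count was 14 without KO day 7 replicates 1 and 2, 13 without the arrays with Krt5 above 100 and 16 with the title letter as a block. Markers of other cells moved in the same comparison, with 10 of 10 monocyte and macrophage markers (median 2.79), 7 of 11 lymphocyte, 4 of 5 neutrophil and 3 of 4 B cell markers higher, and 4 of 5 smooth muscle markers lower. Their part in the result was not tested. The test of whether this change was greater in KO than in WT called 1 gene higher, Oas3 (1.49, adjusted p = 0.0297), where 0.0526% of all genes were called. All 32 of these interaction differences were above 0, with a median of 1.18. An unadjusted p under 0.05 was reached by 19 of them, against 11.7% of all genes. With the replicate block the Oas3 call was lost, as it was without any 1 of 8 single arrays, namely KO day 7 replicate 2 or 3, KO day 15 replicate 1 or 2, WT day 7 replicates 2 to 4 or WT day 15 replicate 4.

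Between day 15 and untreated KO colons 0 of the 32 genes were called, where 0.813% of all genes were called in either direction. An unadjusted p under 0.05 was reached by 6 genes, which held for 16.4% of all genes. The median was -0.28, with 28 of the 32 differences below 0. For 7 genes every day 15 KO array was below every untreated KO array, which held for 4.59% of all genes. The mean of the 32 genes was 7.76 ± 0.12 in KO day 15 arrays and 8.08 ± 0.47 in untreated KO arrays (SD, n = 4 each). In WT colons day 15 against untreated also called 0 of 32 (3.38% of all genes), with 9 at an unadjusted p under 0.05 (17.4% of all genes), a median of 0.47 and Irf9 at the lowest adjusted p (0.81, adjusted p = 0.083). Without WT untreated replicate 1, or without WT day 15 replicate 3 or 4, this count was 1, and with array weights it was 8. The interaction of genotype with day 15 against untreated called 0 genes, where 0.0819% of all genes were called. Its median was -0.88, and 10 genes had an unadjusted p under 0.05, against 7.59% of all genes.

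**Figure D4:**
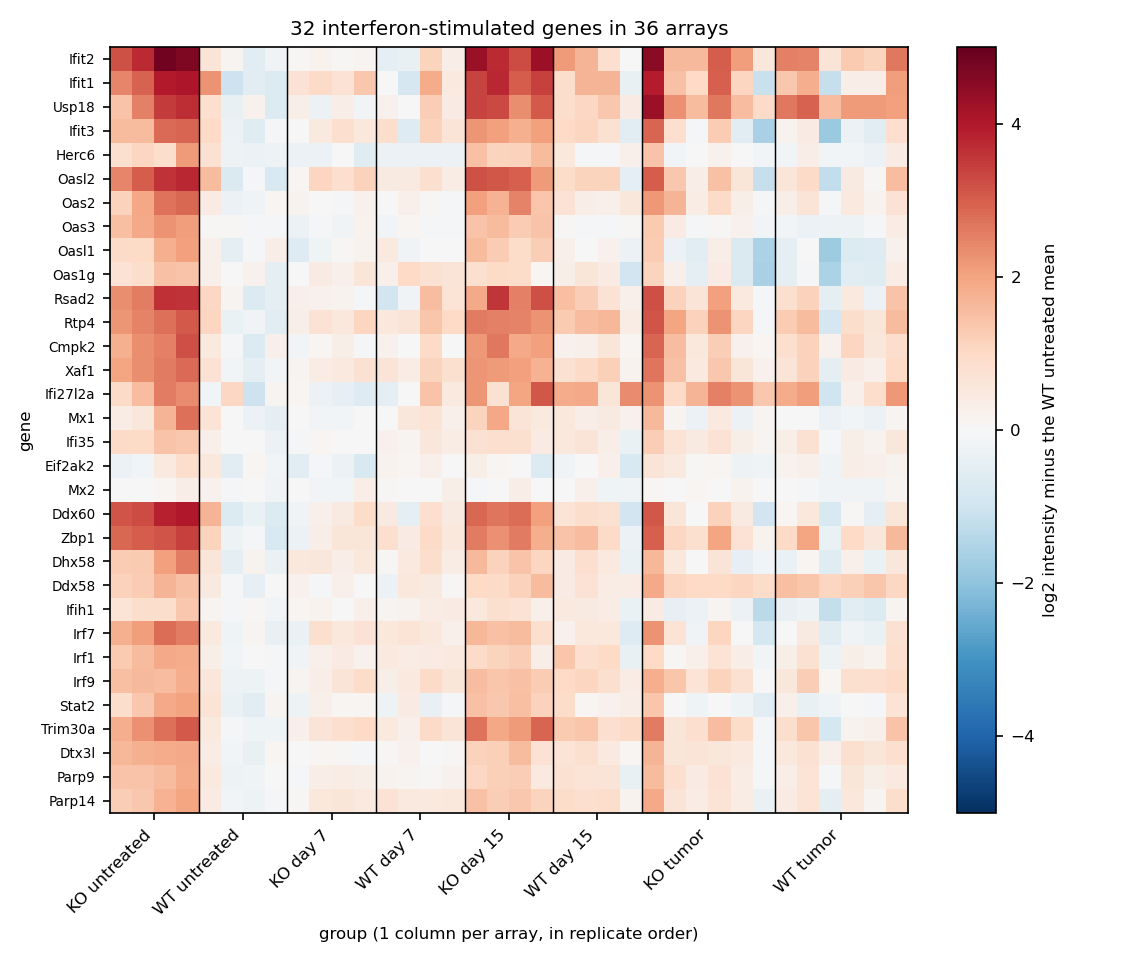
Log2 intensity of the 32 genes (rows, by role) on the 36 arrays (columns, by stage with KO left of WT), each minus the mean of the 4 untreated WT arrays of that gene. Red is higher and blue lower than that mean. Untreated and day 15 KO columns are red in nearly all rows, except Mx2 and Eif2ak2, and KO tumor replicate 1 is redder than the other tumors.

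In tumor-stage colons the genotypes were not told apart by the 32 genes. Among the 32 genes 0 were called between KO and WT, where 0.0526% of all genes were called, and 2 genes, Oas3 and Xaf1, had an unadjusted p under 0.05, against 2.47% of all genes. The median log2 difference was 0.31. Ifit2 ranged from 64 to 1047 in 6 KO tumor arrays (median 167.0), against 74 to 284 in 6 WT tumor arrays (median 182.0), and the 95% interval of its log2 difference was -0.50 to 1.42. The highest Ifit2 value belonged to KO tumor replicate 1, which also had the highest mean of the 32 genes among tumors, 8.20. Without that array the median difference between KO and WT tumors was 0.09. The mean of the 32 genes was 6.84 ± 0.81 in KO tumor arrays and 6.48 ± 0.49 in WT tumor arrays (SD, n = 6 each). Lymphocyte markers summed to 213 to 609 in KO tumor arrays and to 224 to 437 in WT tumor arrays, with 0 of 11 called.

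Within KO mice, tumor arrays had lower levels than untreated arrays for 25 of the 32 genes, where 9.92% of all genes were lower, with a median of -1.30. Ddx60 (-2.85), Oasl2 (-2.28), Ifit2 (-1.86), Irf7 (-1.82), Zbp1 (-1.82) and Rsad2 (-1.79) fell the most, and Ifi35 (-0.60), Irf9 (-0.66) and Parp9 (-0.94) the least among those called. For 4 of the 32 genes all tumor arrays lay below all untreated KO arrays, which held for 9.58% of all genes, so this share is near the background. Lymphocyte markers summed to 213 to 609 in KO tumor arrays and to 487 to 609 in untreated KO arrays, with 2 of 11 lower. Smooth muscle markers were lower for 4 of 5 (median -1.97), colon epithelium markers lower for 5 and higher for 1 of 10, and neutrophil markers higher for 3 of 5. Their part in the result was not tested. Ddx58 was not among the called genes, with a median of 146.0 and a range of 132 to 270 in KO tumor arrays, against 155 to 225 in untreated KO arrays.

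WT tumor arrays showed an increase in a few of the genes. Compared with untreated WT colons, 5 of the 32 genes were higher and 0 lower, where 12.6% of all genes were higher, so the share of the 32 genes (15.6%) was near that of all genes. They were Usp18 (2.24 ± 0.45 SE, adjusted p = 0.00046), Ifit2 (1.79 ± 0.53, 0.0132), Ddx58 (1.27 ± 0.18, 6.44e-06), Irf9 (0.74 ± 0.24, 0.0241) and Dtx3l (0.62 ± 0.20, 0.0236). Ddx58 had 144 to 200 in WT tumor arrays (median 172.0), against 49 to 93 in untreated WT arrays, with no overlap. Of the cell markers, 8 of 10 of monocytes and macrophages (median 1.67) and 5 of 11 of lymphocytes were higher in WT tumors, whereas 5 of 5 of smooth muscle (median -2.26) and 4 of 12 of squamous epithelium were lower. Their part in the result was not tested. The count was 3 without WT untreated replicate 2, 2 without WT untreated replicate 3 and 8 without WT tumor replicate 3.

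The interaction of genotype with tumor against untreated called 10 genes lower, where 0.714% of all genes were called lower. They were Ifit2 (-3.65), Usp18 (-2.81), Zbp1 (-2.78), Cmpk2 (-2.16), Dtx3l (-1.78), Irf1 (-1.65), Oas3 (-1.54), Ddx58 (-1.50), Irf9 (-1.41) and Parp9 (-1.32). The change from untreated to tumor was thus more negative in KO than in WT for these genes. The count was 22 without KO tumor replicate 1 and 17 without WT tumor replicate 3. It was 6 without WT untreated replicate 2, WT untreated replicate 4, KO untreated replicate 3 or KO untreated replicate 4. Leaving out the 7 arrays of high Krt5 gave 4.

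**Figure D5:**
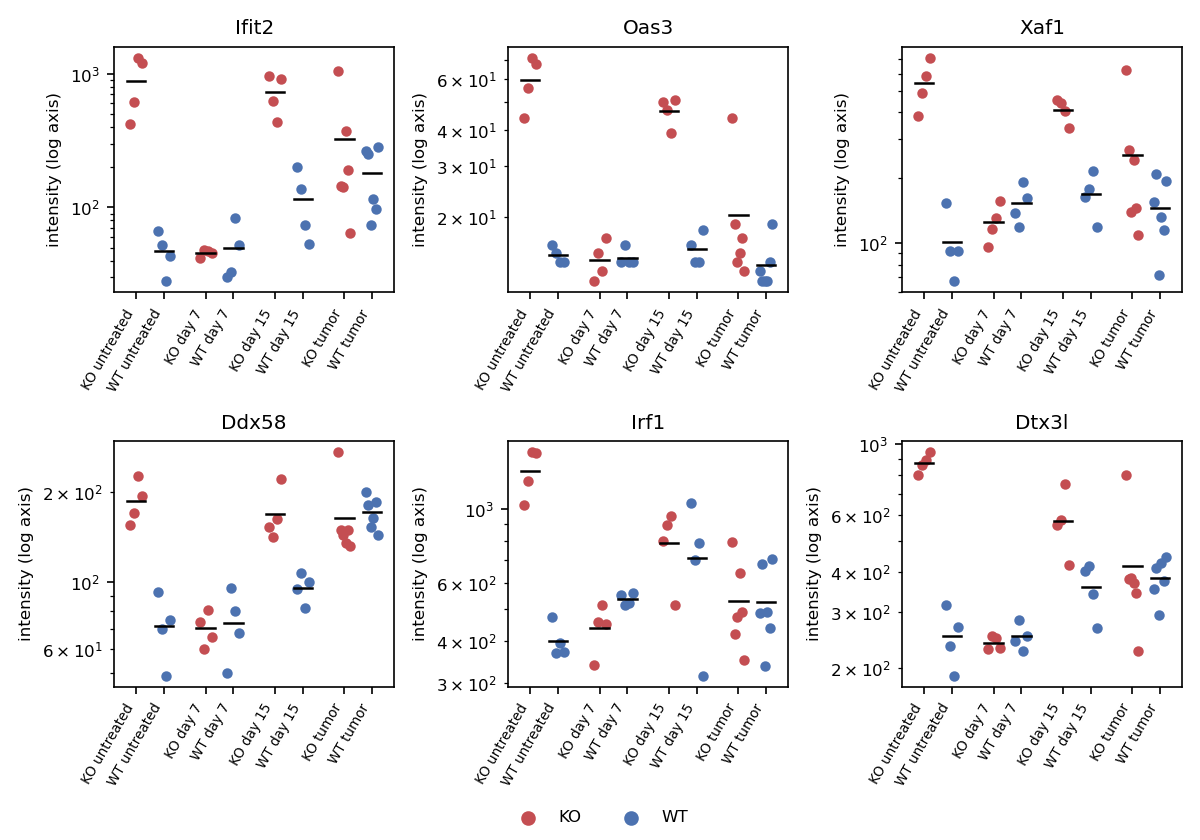
Intensity as deposited, on a log axis, of the gene with the smallest p in each role group, per array (points) and as the group mean (bars), in the 8 groups by stage with KO left of WT. Ifit2, Oas3 and Xaf1 are separated between genotypes untreated and at day 15, whereas Irf1 is separated only untreated. On the normalized scale Ddx58 is separated at both of these stages and Dtx3l only untreated. Ddx58 is above the untreated WT arrays in tumors of both genotypes.

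The highest of the 8 group means was that of untreated KO colons in 28 of the 32 genes and that of day 15 KO colons in the other 4. The lowest was that of untreated WT colons in 20 genes, WT tumors in 8, KO day 7 in 3 and WT day 7 in 1. KO day 15 and KO untreated were separated by the test for 0 genes. Over the 36 arrays the median correlation between 2 of the genes was 0.802 (496 pairs), and 0.697 after the group means were removed. The arrays share tissue composition and normalization, so these are descriptions.

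Xaf1 was closest to the mean of the other genes (r = 0.978 over 36 arrays), followed by Oasl2 and Zbp1 (0.962 each). Mx2 (0.391), Eif2ak2 (0.452), Ifi27l2a (0.594) and Ddx58 (0.641) were farthest. Set against the promoter windows, the untreated KO excess had a median of 1.94 in 11 genes with an ISRE core and 1.80 in 11 without. Ifit2 had no ISRE core in its windows and the highest difference, whereas Eif2ak2 had one and differed by 0.24. The first Ifit2 window begins at 34550444 and the annotated gene at 34550550, so little sequence before the gene was searched. Whether Ifit2 has an ISRE outside these windows was not tested.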

How the data were processed

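Expression was measured in 36 colon RNA samples, 1 microarray each. The values deposited by the authors are linear intensity values for 45037 probe sets, in whole numbers from 4 to 14185, and their background correction, normalization and summarization are not stated. Per the labels' protocols, colons were homogenized in TRIzol and the RNA was biotin-labelled. Probe sets with 1 gene symbol in the platform annotation (28898, besides 551 with several and 15588 with none) were kept. Values were log2 transformed after adding 1, quantile normalized and reduced to the brightest probe set per gene, which left 17097 genes. The number of arrays limits the precision. A mean intensity below 16, where log2 differences depend on the pseudocount, was found for 36% of the genes and for 2 of the 32.

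A limma 3.58.1 model in R 4.3.3 fitted the 8 group means together, with an intensity trend in the moderated variance. P-values were adjusted by Benjamini-Hochberg over all genes within each of 15 comparisons, at a threshold of 0.05. The genes and lists were chosen with earlier results of these data known, and day 15 against day 7 was added after seeing the data. The labels name no batch and do not say that replicates are separate animals, so the p-values cover only the spread between these samples. All 32 genes are named with their untreated difference. Arrays are given one by one for the gene with the smallest p of each role group, the 2 least changed genes and Il17rc, and for Cmpk2 and Gzma, chosen after their values were seen. In other comparisons called genes are named up to 12, and otherwise the 6 largest and 3 smallest.

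Pairing by replicate number was checked by correlating deviations from group means. Every pair exceeded 0.1 only between the day 15 groups (0.174 to 0.801) and between WT day 7 and untreated (0.164 to 0.398). This rests on the data, as the labels state no pairing. Alternatives were a pseudocount of 16, other normalizations and probe set rules, no trend, array weights, only the groups compared, blocks of the replicate number or of the codes in the titles, and arrays left out. In simulated data for untreated KO against WT with 17097 genes, 79% of changes of 1 log2 unit and 99% of 2 log2 units were recovered, with 3.26% false calls. Promoter windows were searched with Python 3.11.15.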

Additional observations from a re-analysis of the deposited data

Results flagged for a closer look

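Among 56 groups examined for a single array far from the rest, 4 had one, and chance gives about 1 in 20. The mean of the 32 genes was 6.73 in WT untreated replicate 1, against 5.84 to 5.88 in the other 3 arrays of the group. Its Krt5 intensity was 6043, and without it 26 of the 32 genes were higher in untreated KO colons. Ddx58 stood at a log2 level of 8.02 in KO tumor replicate 1, against 7.07 to 7.22 in the other 5. Oas3 stood at 4.35 in WT tumor replicate 6, against 3.71 to 3.93. Ddx58 stood at 6.87 in WT day 15 replicate 2, against 6.49 to 6.53.

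The change over the stages differed between genotypes by the interaction test for 20 of the 32 genes from untreated to day 7, for 10 from untreated to tumor and for 1 from day 7 to day 15. The first 2 were lower in KO than in WT, and the last, Oas3, was higher. Causes of these differences were not tested.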

How the results depend on the processing

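Counts are of the 32 genes called. The untreated KO excess of 28 genes ranged from 22 to 30 over 21 alternatives, with a median log2 difference of 1.58 to 2.02, and the untreated differences of Ifit2, Oas3, Xaf1, Ddx58, Irf1 and Dtx3l kept their direction and call in each. With the mean of all probe sets, Xaf1 differed by 1.21 and Ddx58 by 0.75, in place of 2.44 and 1.40. Less bright probe sets also gave smaller untreated differences for Cmpk2 (0.82), Rtp4 (0.78), Parp14 (0.77), Stat2 (0.74) and Dhx58 (0.49 and 0.12). Those of Rsad2 (2.7 and 2.2) and Trim30a (2.37) were closer to the values used, and that of Zbp1 (4.07) was larger. The KO to WT counts of 0 at day 7 and in tumors held under all alternatives run. KO against WT at day 15 (3 genes) gave 6 without normalization, 7 with median centring, 1 with only the groups compared, 1 with the title letter and 1 with the title number as a block, 12 with a replicate block and only the groups compared, and 1 to 4 with single arrays left out. KO day 7 against untreated (28) gave 16 with the letter block, and KO day 15 against day 7 (25) gave 16 with it, 13 without arrays of Krt5 above 100 and 14 without KO day 7 replicates 1 and 2. WT day 7 against untreated (0) gave 3 with array weights. WT day 15 against untreated (0) gave 8 with array weights, 1 with only the groups compared and 0 to 1 with single arrays left out. WT tumor against untreated (5) gave 8 with array weights, 3 with the letter block and 2 to 8 with single arrays left out. The day 7 interaction (20) gave 11 without arrays of Krt5 above 100 and 11 without KO day 7 replicates 1 and 2. The day 15 interaction (0) gave 3 with array weights and 0 to 1 with single arrays left out. The tumor interaction (10) gave 23 with array weights, 5 with only the groups compared, 4 without arrays of Krt5 above 100 and 6 to 22 with single arrays left out. The interaction of day 15 against day 7 (1) gave 6 with array weights, 2 with only the groups compared, 0 with the replicate block, 0 with the letter block, 0 without KO day 7 replicates 1 and 2, and 0 to 1 with single arrays left out. The replicate block moved no other count by over 1.5 times. The cause of these shifts was not tested.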
